A study of Mus musculus with 18 samples.

Results

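Mouse germ cells taken from the embryonic gonad at E13.5 were compared with germ-cell-like cells made in culture from embryonic stem (ES) cells, each sorted on the same Dazl-GFP reporter. The comparison used 4 of the 18 one-colour Agilent arrays of the study, chosen by their titles: 2 arrays labelled Dazl-GFP+ E13.5 and 2 labelled Dazl-GFP+ day 12. The E13.5 cells were GFP-positive cells sorted from dissociated gonads of transgenic embryos. The day 12 cells came from Dazl-GFP ES cells that had been kept with Lif on feeder fibroblasts, freed of the feeders, plated on gelatin and left to differentiate for 12 days before GFP-positive cells were sorted. Both groups are labelled as male and as a mixed C57BL/6 and 129SV strain, and both carry the reporter. The labels do not say how many embryos were pooled, or whether replicates were separate cultures or animals. The p-values thus measure only the spread between replicate arrays, taken over all 18 arrays of the study, and this spread may be technical.

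Primordial germ cells, the founders of eggs and sperm, reach the gonad, lose most of their DNA methylation and then switch on genes for RNA control, transposon defence and meiosis. At about E13.5 female germ cells begin meiosis, in which retinoic acid induces Stra8, while male germ cells stop dividing and turn on Nanos2 in a testis that supplies Fgf9 and holds retinoic acid back. Dazl, the gene behind the reporter, encodes an RNA-binding protein that germ cells need to enter either path.

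A level here is the log2 signal of a gene's probe minus the log2 of the 75th percentile of its array, so that 0 is the 75th percentile. Levels belong to a probe and are compared between samples, not between genes. Values of E13.5 are given with the library labelled E13.5 replicate 1 first, and those of day 12 with replicate 1 first. A change is E13.5 minus day 12 on this log2 scale, with its standard error (SE, n = 2 arrays a group) from a limma fit over all 18 arrays. A gene was called, and is said to have risen or fallen at E13.5, at a Benjamini-Hochberg adjusted p under 0.05 over 18870 genes. A probe that was not well above background on both arrays of a group gives only a limit on the fold, marked by the words at least. Where only 1 array of a group was not well above background, its measured value enters the change, as for Ambp, Dct, Zscan4c, Esx1, Cyp26a1, Zfp57, Nnat and Pdgfra at E13.5 and Klhl35, Asb4, Lhx1os, Spo11 and Sycp2 at day 12.

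The E13.5 libraries did not match each other in sex-linked genes, and the library labelled E13.5 replicate 1 went against its male label. Ddx3y, a Y-linked RNA helicase, had levels of -7.45 and -1.36 at E13.5, against -0.43 and -0.46 at day 12. Eif2s3y, a Y-linked translation factor, had -7.29 and 3.17 at E13.5, against 2.52 and 2.43 at day 12. Uba1y, a Y-linked ubiquitin-activating enzyme, had -7.38 and 4.51 at E13.5, against 3.08 and 3.05 at day 12. These genes, Kdm5d and Rbmy were not well above background on the library labelled E13.5 replicate 1 and were so on the other 3 arrays. Zfy1 and Zfy2 were well above background on all 4 arrays, and Usp9y on none. X-linked genes were higher on that library than on E13.5 replicate 2, with a median difference of 0.47 over 431 genes, while the medians of the 19 autosomes lay between -0.17 and -0.04. Of the 4 probes of Xist, the RNA that silences an X chromosome in female cells, 1 was well above background on both E13.5 arrays, and 0 were so on both day 12 arrays. That probe carried an outlier flag and was not tested. Because of this mismatch, the counts of the gene lists described here are also given with E13.5 replicate 2 as the lone array of its stage, in a fit that takes the spread of that array to be like that of the other groups.

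The pairs of arrays also differed in how closely they repeated. Replicates correlated across genes with r = 0.943 at E13.5, the lowest of the 9 groups, and r = 0.987 at day 12. The median absolute difference between replicates was 0.52 at E13.5 and 0.10 at day 12, and 1519 of 17691 genes differed by a log2 of 2 or more between the E13.5 arrays, against 271 of 16824 between the day 12 arrays. Well above background were 64.0% and 61.9% of spots at E13.5 and 56.7% and 60.6% at day 12. The E13.5 arrays shared a slide and the day 12 arrays lay on others, scanned on another day, so slide and scan day cannot be told apart from the group. In these bulk samples, fewer cells of a type and less RNA per cell cannot be told apart either.

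Of the 18870 genes tested, 7928 were called, which is 42%. There were 4336 genes that rose at E13.5 (23%) and 3592 that fell (19%), and the median change over all genes was 0.15. The groups did not overlap in 12597 genes (66.8%), nor in 7925 of the 7928 genes called. A lack of overlap therefore adds little to a call. With E13.5 replicate 2 alone, 4443 genes were higher and 3655 lower, and 6378 of these 8098 calls were also called with both libraries. A fit of the 4 arrays alone, which leaves 2 residual degrees of freedom, called 1087 higher and 1304 lower. The main fit shares the spread of a gene over all groups, so its SE and p-values can understate the spread at E13.5. With arrays weighted by their spread, 0.125 at E13.5 and 2.486 at day 12, 3991 genes were called.

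Among genes with a name, those that rose most at E13.5 included the transcription factor genes Bnc1 and Isl2. Bnc1, which encodes basonuclin 1, a zinc-finger protein of germ cells and epidermis, had -0.40 and 0.64 at E13.5, against -6.21 and -5.67 at day 12, where it was not well above background. It was at least 31.8-fold higher at E13.5 (adjusted p = 4.35e-07). Isl2, a LIM-homeodomain factor known from motor neurons, had 2.64 and 1.22 at E13.5, against -3.54 and -4.25 at day 12, a rise of 5.83 ± 0.41 (adjusted p = 1.88e-06). Every E13.5 array lay above every day 12 array for both, which the rule that picked the largest changes required. Khdc1a, a KH-domain gene of oocytes, was at least 43.8-fold higher, Igfbpl1, an insulin-like growth factor binding protein relative, at least 36.9-fold, Krt222, a keratin relative, at least 21.5-fold (not called with normexp background correction, adjusted p = 0.0732), and Cfd, complement factor D, at least 12.9-fold. Klhl35, a kelch-like gene, rose by 5.79 ± 0.51, Asb4, an ankyrin repeat and SOCS box gene, by 5.70 ± 1.02 and Lhx1os, an RNA from the strand opposite Lhx1, by 5.47 ± 1.15. For Lhx1os the E13.5 arrays had -0.50 and 2.86, which lie 3.79 and 7.15 above the day 12 mean.

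The genes that fell most included genes known from the 2-cell embryo, the liver and pigment cells. Gm428 had -6.97 and -6.97 at E13.5, not well above background, against 2.88 and 2.89 at day 12, and was at least 309-fold lower at E13.5 (adjusted p = 4.69e-08). Zscan4c, which marks the 2-cell embryo and a small, changing share of ES cells, had -4.95 and -5.36 at E13.5, against 2.79 and 2.89 at day 12, and fell by 8.0 ± 0.47 (adjusted p = 5.77e-07). Tcstv1, also a 2-cell gene, was at least 215-fold lower at E13.5. None of the E13.5 values of these genes reached the day 12 values, which the rule that picked them required. Ambp, which encodes the precursor of alpha-1-microglobulin made by the liver, fell by 8.58 ± 0.80, with -6.45 and -3.18 at E13.5, against 3.75 and 3.77 at day 12. Dct, the dopachrome tautomerase of melanin synthesis, fell by 8.14 ± 0.42. Hspb8, a small heat shock protein, was at least 128-fold lower, Gli2, a transcription factor of Hedgehog signalling, at least 60.3-fold, and the PRAME-like genes Pramel37 and Pramel39 at least 94.5-fold and 53.1-fold.

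Most of the germline RNA regulators rose at E13.5. Of 15 tested, 9 rose (60%, against 23% of all genes) and 0 fell, with a median change of 1.57. Ddx4, the Vasa RNA helicase of germ granules, had 5.59 and 4.98 at E13.5, against 2.41 and 2.35 at day 12, a rise of 2.90 ± 0.23 (adjusted p = 4.27e-06), which is 7.47-fold. Dnd1, which protects germ cell mRNAs, had 4.31 and 4.98 at E13.5, against 1.25 and 1.36 at day 12, a rise of 3.34 ± 0.40 (adjusted p = 8.01e-05). Cpeb1, which controls polyadenylation and translation in germ cells, had 3.01 and 3.22 at E13.5, against -0.06 and -0.09 at day 12, a rise of 3.19 ± 0.37 (adjusted p = 6.4e-05). Both E13.5 arrays were above both day 12 arrays for each of these genes. Elavl2, a neuronal and germ cell RNA-binding protein, rose by 1.81 ± 0.26. Tdrd3, a Tudor-domain protein that binds methylarginine, rose by 2.15 ± 0.21, with a further probe at -0.23.

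Dazl itself, on which both groups were sorted, differed little. It had 5.42 and 5.28 at E13.5, against 4.93 and 4.81 at day 12, a rise of 0.48 ± 0.16 (adjusted p = 0.0314) that 10 of the alternative settings lost. It was 0.41 (adjusted p = 0.0814) with E13.5 replicate 2 alone, 0.54 (adjusted p = 0.0800) without day 12 replicate 1 and 0.42 (adjusted p = 0.157) without day 12 replicate 2. A further Dazl probe changed by -0.83, so the direction for Dazl depends on the probe. Tex19.1, a germ cell gene of transposon control, had 6.4 and 6.55 at E13.5, against 5.65 and 5.67 at day 12, a difference of 0.82 ± 0.32 that was not called (adjusted p = 0.0591). Dazap1, a partner of Dazl, differed by 0.23 ± 0.20 (adjusted p = 0.391). With E13.5 replicate 2 alone, 8 RNA regulators rose and 1 fell.

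The piRNA pathway, in which PIWI proteins and small RNAs silence transposons, had 11 of 20 tested genes rise (55%) and 1 fall, with a median change of 1.22. The rise was largest for Tdrd1, a Tudor-domain protein that docks PIWI proteins in germ granules. Tdrd1 had 3.22 and 2.56 at E13.5, against -2.22 and -2.16 at day 12, a rise of 5.08 ± 0.27 (adjusted p = 3.11e-07), which is 33.8-fold. Other Tudor-domain genes of the pathway moved with it. Tdrd5 had 2.49 and 3.79 at E13.5, against -0.19 and -0.24 at day 12, a rise of 3.35 ± 0.41. Tdrd7 had 4.56 and 3.47 at E13.5, against 1.23 and 1.05 at day 12, a rise of 2.87 ± 0.33. Tdrkh had 3.65 and 3.40 at E13.5, against 1.09 and 0.94 at day 12, a rise of 2.51 ± 0.20. The adjusted p was 8.49e-05 for Tdrd5, 6.31e-05 for Tdrd7 and 3.82e-06 for Tdrkh, and the groups did not overlap in any of them.

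Piwil2, the PIWI protein of fetal and adult germ cells, had 1.71 and 1.41 at E13.5, against -0.17 and -1.55 at day 12, a rise of 2.42 ± 0.48 (adjusted p = 0.00202). The day 12 arrays differed more from each other for Piwil2 than for most genes, and both stayed below E13.5. Piwil2 was not called with arrays weighted by their spread or with the 4 arrays alone. Mael, the Maelstrom gene of the nuage, rose by 1.56 ± 0.35 and Mov10l1, the helicase that starts piRNA processing, by 1.30 ± 0.38, or 0.82 (adjusted p = 0.133) with E13.5 replicate 2 alone. Gtsf1, a PIWI cofactor, was the member that fell, with 2.97 and 1.23 at E13.5, against 3.78 and 3.83 at day 12, and fell by 1.70 ± 0.49 (adjusted p = 0.0160), while without E13.5 replicate 2 the change was -0.83 (adjusted p = 0.131). Neither Mov10l1 nor Gtsf1 was called without either day 12 array, with adjusted p between 0.0628 and 0.0736. Tdrd12 had 3.02 and 3.55 at E13.5, against 3.61 and 3.57 at day 12, and its difference of -0.30 ± 0.25 was not called. Fkbp6 (0.24 ± 0.51) and Asz1 (1.02 ± 0.39, adjusted p = 0.0534) were not called either. In the fit with E13.5 replicate 2 alone, 8 piRNA genes rose and 2 fell. The RNA regulator and piRNA lists share Ddx4, Mael and Rnf17, so their counts overlap.

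Several of these genes belong to a group that mouse embryos keep silent by promoter methylation until germ cells lose it. Of 19 such methylation-dependent germline genes tested, 7 rose (Dazl, Ddx4, Mael, Tdrd1, Mov10l1, Piwil2 and Slc25a31) and 2 fell, with a median change of 0.97. In the fit with E13.5 replicate 2 alone, 4 rose and 3 fell. Slc25a31, a testis ADP/ATP carrier, changed by 0.97 ± 0.35, by 0.31 (adjusted p = 0.376) with that array alone, and was not called without either day 12 array or with quantile normalization (adjusted p = 0.0641). Dpep3, a dipeptidase gene of testis, was among those that fell, with -3.74 and -3.78 at E13.5, against -0.31 and -0.18 at day 12, and fell by 3.52 ± 0.79 (adjusted p = 0.00426). It was not called with arrays weighted by their spread. Sohlh2, a transcription factor of germ cells, had 4.04 and 3.68 at E13.5, against 3.80 and 3.68 at day 12, a difference of 0.12 ± 0.30 that was not called.

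The promoters of 18 of these 19 genes were in the RefSeq promoter table of build GRCm38.p6, each 300 bases long and mostly upstream of a start site. The sequence CACGTG, the E-box, which reads the same on both strands and is the kind of site that complexes of Max and Mga bind, was in the promoters of 9 of the 18 genes (50%), against 2187 of 27025 genes in the table (8.09%), a gene being counted when any of its listed promoters held it. Among the piRNA genes it was in 7 of 17 (41.2%). The median number of CpG dinucleotides was 19.5 in the 18 genes and 8.0 in all genes, and the share was not compared at equal CpG content. A match is a description of the letters and no evidence of a bound site. The promoters of Tdrd1, Ddx4 and Mael, which rose by 5.08, 2.90 and 1.56, each held 1 E-box in their first listed promoter, shown in capitals in sequences that run 5′ to 3′ on the strand of the gene. That of Dazl held 0 in this window and 28 CpG dinucleotides. Both groups were sorted on Dazl-GFP, so its change of 0.48 is no contrast to theirs. Whether the E-box goes with the change was not tested. Of the 3 promoters listed for Tdrd1, the second held 1 E-box and the third held 0.
Tdrd1 promoter, chr19:56825959-56826258, plus strand: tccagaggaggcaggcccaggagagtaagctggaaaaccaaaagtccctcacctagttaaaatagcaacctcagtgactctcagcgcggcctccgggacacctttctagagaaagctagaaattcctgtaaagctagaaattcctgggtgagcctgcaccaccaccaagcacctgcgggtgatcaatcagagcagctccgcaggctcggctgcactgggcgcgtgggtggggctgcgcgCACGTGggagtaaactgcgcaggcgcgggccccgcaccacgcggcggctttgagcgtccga
Ddx4 promoter, chr13:112652261-112652560, minus strand: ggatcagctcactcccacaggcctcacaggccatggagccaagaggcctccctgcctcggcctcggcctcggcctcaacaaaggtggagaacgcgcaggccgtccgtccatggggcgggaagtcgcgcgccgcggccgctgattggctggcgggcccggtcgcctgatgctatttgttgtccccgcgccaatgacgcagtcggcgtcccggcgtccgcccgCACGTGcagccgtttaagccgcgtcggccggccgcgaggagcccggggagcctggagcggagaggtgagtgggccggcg
Mael promoter, chr1:166238695-166238994, minus strand: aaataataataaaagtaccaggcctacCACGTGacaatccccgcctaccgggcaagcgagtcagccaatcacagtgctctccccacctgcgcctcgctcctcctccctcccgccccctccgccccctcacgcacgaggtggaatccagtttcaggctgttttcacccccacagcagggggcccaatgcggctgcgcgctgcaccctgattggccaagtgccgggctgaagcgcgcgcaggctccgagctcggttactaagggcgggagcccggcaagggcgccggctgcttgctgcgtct
Dazl promoter, chr17:50293571-50293870, minus strand: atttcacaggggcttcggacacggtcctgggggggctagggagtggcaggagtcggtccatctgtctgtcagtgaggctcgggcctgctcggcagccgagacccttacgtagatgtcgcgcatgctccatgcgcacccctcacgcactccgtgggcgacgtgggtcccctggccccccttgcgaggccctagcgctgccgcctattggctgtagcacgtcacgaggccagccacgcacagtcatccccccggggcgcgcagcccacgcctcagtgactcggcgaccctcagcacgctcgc

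Transcription and signalling factors of germ cells moved both ways. Of 17 tested, 6 rose (35.3%, against 23% of all genes) and 3 fell (17.6%, against 19%), with a median of 0.41. Tex14, a protein of the intercellular bridges between germ cells, had 3.88 and 3.48 at E13.5, against 1.91 and 2.00 at day 12, a rise of 1.73 ± 0.33 (adjusted p = 0.00158). Lhx8, a homeobox factor of oocytes, was at least 6.71-fold higher at E13.5, with -1.83 and -2.42 against -5.38 and -5.11 at day 12, where it was not well above background. With normexp background correction its change was 0.33 and not called (adjusted p = 0.431), and of the whole list 1 gene rose and 1 fell. Dmrt1, a sex-determining factor that also acts in germ cells, had 0.65 and 0.73 at E13.5, against 1.47 and 1.47 at day 12, and fell by 0.78 ± 0.21 (adjusted p = 0.0106). Kit, the receptor that keeps primordial germ cells alive, had 2.39 and 2.00 at E13.5, against 2.81 and 2.85 at day 12, and fell by 0.64 ± 0.22 (adjusted p = 0.0376). Kit was not called without E13.5 replicate 2 (-0.44, adjusted p = 0.175), and neither Kit nor Dmrt1 was called without either day 12 array, with adjusted p between 0.0521 and 0.132. Both also lost their call with normexp (adjusted p = 0.174 for Kit and 0.0609 for Dmrt1). Esx1, an X-linked homeobox gene of placenta and testis, fell by 6.42 ± 1.03, with -2.94 and -6.35 at E13.5, against 1.81 and 1.75 at day 12. The counts turned to 3 that rose and 6 that fell with E13.5 replicate 2 alone.

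Early primordial germ cell genes were also split, with 6 of 14 rising and 4 falling (median 0.65), and with 6 and 4 again from E13.5 replicate 2 alone. With both libraries the shares were 42.9% and 28.6%, against 23% and 19% of all genes. Prdm1, the Blimp1 repressor that specifies primordial germ cells, had 0.13 and 1.56 at E13.5, against -2.26 and -2.25 at day 12, a rise of 3.1 ± 0.42 (adjusted p = 1.63e-04). Dppa3, the Stella gene, had 5.43 and 6.95 at E13.5, against 4.20 and 4.15 at day 12, a rise of 2.02 ± 0.35 (adjusted p = 9.41e-04). Both genes were higher on each E13.5 array than on each day 12 array, and higher on E13.5 replicate 2 than on the library labelled replicate 1. Neither Prdm1 nor Dppa3 was called with the 4 arrays alone. Itgb3, an integrin used to mark primordial germ cells, rose by 2.27 ± 0.40, with a further probe at -0.14, and Ifitm1, an interferon-induced membrane protein of early germ cells, by 1.49 ± 0.35. Tfap2c, another specifier of primordial germ cells, fell by 1.17 ± 0.33, Kdm1a, a histone H3 lysine demethylase, by 0.78 ± 0.23, and Elf3, an epithelial transcription factor, by 4.25 ± 0.40. Tfap2c was not called without E13.5 replicate 2 (-0.77, adjusted p = 0.0980), Kdm1a not with that array alone (-0.51, adjusted p = 0.110), and neither without either day 12 array, with adjusted p between 0.0575 and 0.0920. Neither was called with normexp (adjusted p = 0.0555 for Tfap2c and 0.110 for Kdm1a).

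Pluripotency genes mostly fell. Of 22 tested, 12 fell (54.5%, against 19% of all genes) and 3 rose, with a median of -1.0. Tbx3, a factor of the naive state, had -4.33 and -4.22 at E13.5, against 3.54 and 3.56 at day 12, and fell by 7.83 ± 0.16 (adjusted p = 2.77e-10). Klf4 had 1.73 and 2.12 at E13.5, against 5.09 and 5.06 at day 12, and fell by 3.15 ± 0.24 (adjusted p = 3.82e-06). Nanog had -0.82 and 1.35 at E13.5, against 3.59 and 3.71 at day 12, and fell by 3.39 ± 0.49 (adjusted p = 2.78e-04). Every E13.5 value of these genes was below every day 12 value, but Nanog was not called with the 4 arrays alone. Klf2 fell by 3.12 ± 0.21, with a further probe that rose by 1.64, Tfcp2l1, which sustains self-renewal with Klf factors, by 2.75 ± 0.28, and Fbxo15, an F-box gene of ES cells, by 2.42 ± 0.26. Pou5f1, the Oct4 gene, had 3.67 and 4.78 at E13.5, against 4.68 and 4.34 at day 12, and these ranges overlapped (-0.29 ± 0.62, adjusted p = 0.741).

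The pluripotency genes that rose were the RNA-binding genes Lin28a and Lin28b, which block let-7 microRNAs and are needed for primordial germ cells, and Utf1, a chromatin protein. Lin28a had 1.79 and 1.73 at E13.5, against -1.16 and -1.23 at day 12, a rise of 2.96 ± 0.37 (adjusted p = 1.08e-04). Lin28b rose by 2.19 ± 0.26 and Utf1 by 1.92 ± 0.48. From E13.5 replicate 2 alone, 6 pluripotency genes rose and 11 fell.

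Genes of DNA methylation and demethylation fell more often than they rose, 8 against 3 of 17 tested (47.1% and 17.6%). Dnmt3l, the cofactor of de novo methylation that male germ cells use later in gestation, had -3.38 and -1.66 at E13.5, against 3.68 and 3.77 at day 12, and fell by 6.24 ± 0.40 (adjusted p = 9.92e-07). Dnmt3b, a de novo methyltransferase, had -1.78 and -0.64 at E13.5, against 1.53 and 1.49 at day 12, and fell by 2.72 ± 0.34 (adjusted p = 1.09e-04). Zfp57, a zinc-finger protein that guards imprints, had -5.06 and -5.31 at E13.5, against -1.59 and -1.64 at day 12, and fell by 3.57 ± 0.25 (adjusted p = 1.88e-06). The groups did not overlap in these genes. Tet2, an enzyme that oxidises methylcytosine, fell by 1.71 ± 0.25, with a further probe at 0.002. Tdg, a glycosylase that removes oxidised bases, fell by 1.40 ± 0.21. Dnmt1, the maintenance methyltransferase, rose by 0.70 ± 0.20, Dnmt3a by 0.93 ± 0.29 with a further probe at -0.34, and Mbd2, which binds methylated DNA, by 1.26 ± 0.25. With E13.5 replicate 2 alone, 4 rose and 8 fell, and Dnmt1 was not called (0.55, adjusted p = 0.0609). Dnmt3a was not called without that array (0.80, adjusted p = 0.0966), and neither was called without either day 12 array, with adjusted p between 0.0529 and 0.0937. Quantile normalization also ended the call of Dnmt1 (0.37, adjusted p = 0.138).

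Genes of the Polycomb repressive complexes, which silence developmental genes through histone marks, had 6 of 19 rise and 2 fall. Those that rose were 31.6%, against 23% of all genes, and those that fell were a smaller share than the 19% of all genes. In the main fit the core subunits Suz12 and Eed fell, while parts of the other complex and of its variants rose. The fit of the 4 arrays alone called 1 gene of the list higher and 0 lower, so it does not show this split. There Suz12, Eed, Ring1, L3mbtl2, Pcgf2 and Cbx2 lost their call. Suz12 had 1.36 and 1.99 at E13.5, against 3.40 and 3.41 at day 12, and fell by 1.73 ± 0.22 (adjusted p = 1.22e-04). Eed fell by 1.11 ± 0.19. Ring1, a ubiquitin ligase subunit, rose by 1.14 ± 0.23, L3mbtl2, which partners E2f6 and Mga, by 1.09 ± 0.21, Bmi1 by 1.30 ± 0.32, Pcgf2 by 0.89 ± 0.20 and Cbx2, which is needed for male sex determination, by 0.97 ± 0.27. Ezh2, the methyltransferase, had 2.89 and 2.92 at E13.5, against 3.20 and 3.24 at day 12, and was not called (-0.31 ± 0.22). These counts were 7 and 4 with E13.5 replicate 2 alone, where Cbx2 was not called (0.58, adjusted p = 0.104), nor was it without either day 12 array (adjusted p = 0.0551 and 0.0723). Bmi1 (0.72, adjusted p = 0.0665) and Pcgf2 (0.02, adjusted p = 0.948) were not called with normexp.

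Of 21 imprinted genes, which are read from only 1 parental copy in body cells, 2 rose (9.52%) and 7 fell (33.3%). The shares of all genes were 23% and 19%. Sgce, a paternally expressed sarcoglycan gene, had -2.69 and -2.74 at E13.5, against 2.69 and 2.69 at day 12, and fell by 5.40 ± 0.34 (adjusted p = 1.05e-06). Impact, a paternally expressed regulator of translation, had 0.52 and 0.75 at E13.5, against 3.42 and 3.38 at day 12, and fell by 2.77 ± 0.23 (adjusted p = 5.85e-06). Both E13.5 arrays stood well below both day 12 arrays for these genes. Nnat, a paternally expressed membrane protein gene, fell by 2.84 ± 0.55, Magel2 by 1.55 ± 0.31 and Grb10, a growth inhibitor, by 1.72 ± 0.47. Peg3, a paternally expressed zinc-finger gene, rose by 1.55 ± 0.29, and Cdkn1c, a maternally expressed cell cycle inhibitor, by 1.55 ± 0.38. The counts with E13.5 replicate 2 alone were 2 higher and 10 lower, and Cdkn1c was not called (1.21, adjusted p = 0.0501). Grb10 was not called without day 12 replicate 1 (-1.67, adjusted p = 0.0596).

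**Figure D1:**
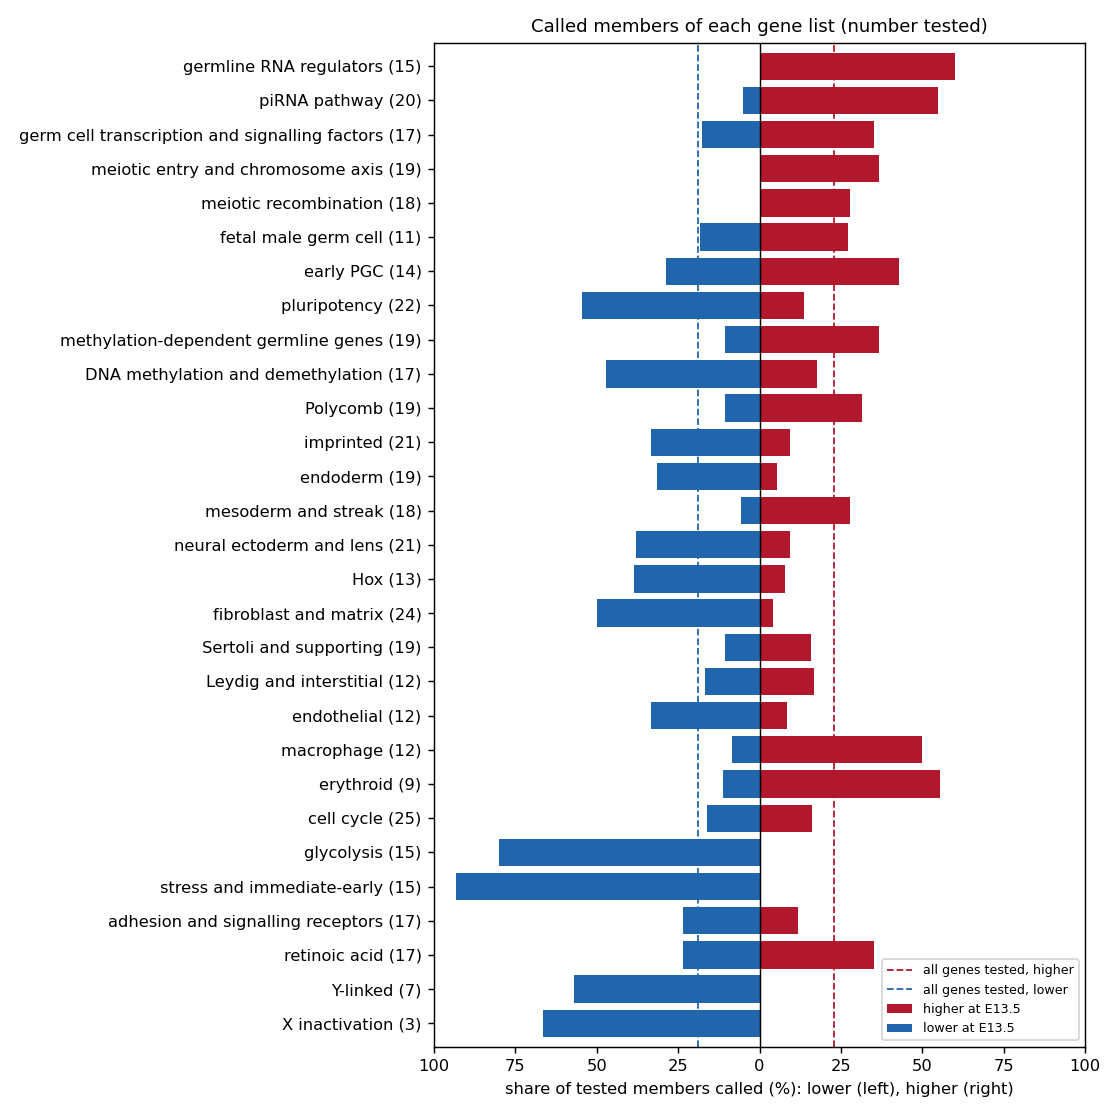
Share of the tested members of each gene list that rose (red, to the right) or fell (blue, to the left) at E13.5 against day 12, in percent, with the number tested in brackets and dashed lines at the shares over all genes tested, 23% and 19%. Germline RNA regulators (60%), erythroid genes (55.6%) and piRNA genes (55%) lie furthest to the right. Stress (93.3%) and glycolysis (80%) genes lie furthest to the left.

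Glycolysis genes fell together. Of 15 tested, 12 fell (80%, against 19% of all genes) and 0 rose, with a median of -2.82. The summed level of the list, in multiples of the array's 75th percentile, was 198 and 392 at E13.5, against 1708 and 1706 at day 12. Slc2a3, a glucose transporter, had 2.61 and 2.97 at E13.5, against 6.10 and 6.08 at day 12, and fell by 3.30 ± 0.18 (adjusted p = 4.35e-07). Ldha, which turns pyruvate into lactate, had 3.31 and 1.88 at E13.5, against 6.84 and 6.82 at day 12, and fell by 4.24 ± 0.39 (adjusted p = 1.25e-05), which is 18.8-fold. Pgk1, the X-linked phosphoglycerate kinase, had 3.75 and 4.14 at E13.5, against 7.00 and 6.96 at day 12, and fell by 3.04 ± 0.20 (adjusted p = 1.19e-06). E13.5 and day 12 did not overlap in any of these, and day 12 was the higher. Hk2, a hexokinase, fell by 3.49 ± 0.35 and Pfkp, a phosphofructokinase, by 3.64 ± 0.32. Pkm, the pyruvate kinase, had 4.57 and 6.08 at E13.5, against 5.99 and 5.97 at day 12, and was not called (-0.66 ± 0.48). Pdk1, which holds pyruvate back from the mitochondria, had -0.29 and 2.02 at E13.5, against 1.82 and 1.72 at day 12, and was not called (-0.90 ± 0.64). Without E13.5 replicate 2, both were called lower, Pkm by -1.41 and Pdk1 by -2.06.

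With E13.5 replicate 2 alone, 10 glycolysis genes fell and 0 rose, with a median of -2.35, and the fit of the 4 arrays alone called 9 lower and 0 higher. The levels of Ldha in the other groups of the study were 6.89 to 7.67 in ES cells, 6.33 to 6.38 in Stella-GFP cells at day 7, 6.76 to 6.81 in Dazl-GFP cells at day 16, and 0.33 to 1.30 in germ cells from juvenile testis. On this probe, day 12 lay with the other cultured cells, and E13.5 lay between these and juvenile testis.

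The core of the sequence that hypoxia-inducible factor binds, ACGTG, was in the promoters of 8 of the 14 glycolysis genes with a promoter in the table (57.1%), against 5886 of 27025 genes (21.8%). Both strands were searched, and ACGTG is contained in CACGTG, so every E-box counts as a match here too. In lists that did not fall, ACGTG was in 72.2% of methylation-dependent germline promoters, 64.7% of piRNA promoters and 53.3% of meiotic entry and axis promoters. The E-box was in 50%, 41.2% and 40% of these promoters, but in 1 of the 14 glycolysis genes (7.14%). Matches outside an E-box were not counted apart, so these shares do not compare the lists for such matches. These 14 genes had a median of 24 CpG dinucleotides, against 8.0 in all genes, and the share was not compared at equal CpG content. The first listed promoter of Ldha held 5 matches over both strands, where each E-box counts once per strand. Its second held 0, and the promoter of Pgk1 held 2. They are shown because these genes fell by 4.24 and 3.04, with ACGTG, or CACGT where the match is on the other strand, in capitals.
Ldha promoter, chr7:46845554-46845853, plus strand: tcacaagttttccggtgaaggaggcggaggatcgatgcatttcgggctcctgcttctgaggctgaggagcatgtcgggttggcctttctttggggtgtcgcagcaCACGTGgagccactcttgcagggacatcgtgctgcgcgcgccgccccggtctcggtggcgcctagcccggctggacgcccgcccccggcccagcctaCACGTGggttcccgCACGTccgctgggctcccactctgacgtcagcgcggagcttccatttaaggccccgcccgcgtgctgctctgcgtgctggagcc
Pgk1 promoter, chrX:106186850-106187149, plus strand: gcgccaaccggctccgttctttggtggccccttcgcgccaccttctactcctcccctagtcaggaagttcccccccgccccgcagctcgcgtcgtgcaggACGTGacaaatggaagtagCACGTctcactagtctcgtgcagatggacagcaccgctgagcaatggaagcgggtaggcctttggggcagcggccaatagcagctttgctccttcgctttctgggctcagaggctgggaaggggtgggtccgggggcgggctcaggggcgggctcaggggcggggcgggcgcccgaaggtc

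Stress and immediate-early genes, which cells switch on within minutes of handling, growth signals or damage, fell in 14 of 15 cases (93.3%) and rose in 0, with a median of -2.0. Junb, an AP-1 subunit, had 0.38 and 0.25 at E13.5, against 2.97 and 2.89 at day 12, and fell by 2.61 ± 0.16 (adjusted p = 9.19e-07). Hspb1, a small heat shock protein, had 1.35 and -0.13 at E13.5, against 5.16 and 5.15 at day 12, and fell by 4.54 ± 0.38 (adjusted p = 6.64e-06). Gadd45b, a stress sensor, had 1.06 and -0.12 at E13.5, against 2.83 and 2.84 at day 12, and fell by 2.36 ± 0.33 (adjusted p = 2.25e-04). All E13.5 values of these genes lay below all day 12 values. Atf3, a stress-induced transcription factor, fell by 2.21 ± 0.32 and Fos by 1.95 ± 0.29. Myc had -4.08 and -2.52 at E13.5, against -3.05 and -2.96 at day 12, and was not called (-0.30 ± 0.39), but was called lower without E13.5 replicate 2 (-1.08). From E13.5 replicate 2 alone 11 fell and 0 rose, and the fit of the 4 arrays alone called 5 lower. The groups also differed in how the cells were released, E13.5 from dissociated gonads and day 12 from culture with trypsin and collagenase, which cannot be told apart from the stage.

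**Figure D2:**
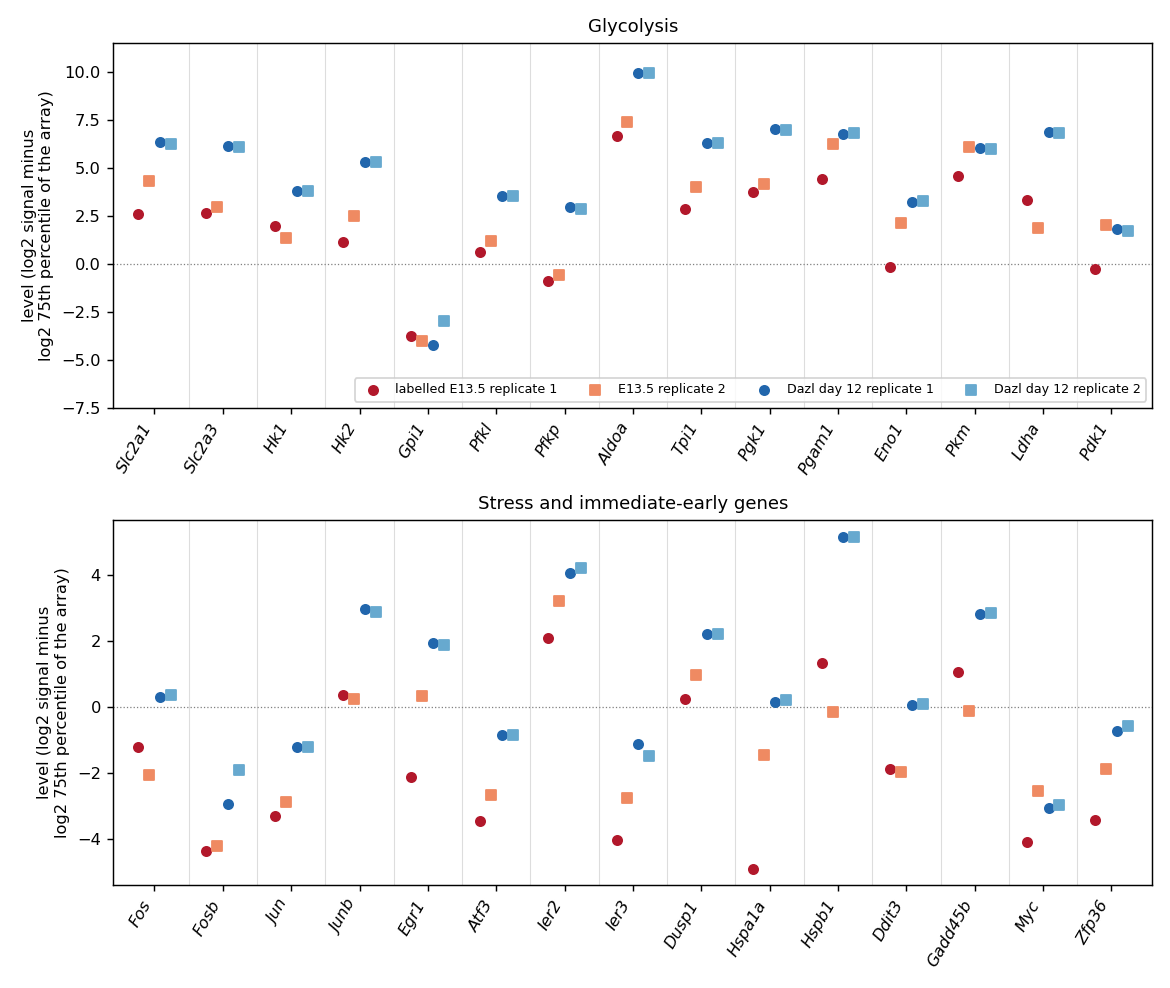
Levels (log2 signal minus the log2 75th percentile of the array) of the tested glycolysis genes (top) and stress and immediate-early genes (bottom), 1 point per array, with the E13.5 arrays in red and orange to the left of the day 12 arrays in blue. In Slc2a3, Ldha, Pgk1, Junb and Hspb1 both E13.5 points lie below both day 12 points, while Pkm and Myc overlap.

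Cell cycle genes showed no common direction, with 4 of 25 rising and 4 falling (16% each) and a median of 0.03. Mcm5, a replication helicase subunit, had 5.72 and 5.63 at E13.5, against 4.63 and 4.69 at day 12, a rise of 1.02 ± 0.14. Cdc20, which activates the anaphase-promoting complex, rose by 0.84 ± 0.17. Cdkn1a, the p21 inhibitor, had 0.75 and 0.46 at E13.5, against 1.82 and 1.83 at day 12, and fell by 1.22 ± 0.18. Ccnb2, a mitotic cyclin (0.23 ± 0.17), and Pcna, the replication clamp (0.26 ± 0.17), were not called, though Pcna was with E13.5 replicate 2 alone (0.48). Of 17 retinoic acid genes, 6 rose (35.3%) and 4 fell (23.5%), against 23% and 19% of all genes. Rxrb, a retinoid X receptor, had 2.89 and 3.45 at E13.5, against 1.58 and 1.43 at day 12, a rise of 1.66 ± 0.19. Cyp26a1, which degrades retinoic acid, fell by 3.90 ± 0.92, with -3.72 and -6.52 at E13.5, against -1.27 and -1.17 at day 12. From E13.5 replicate 2 alone, 7 cell cycle genes rose and 2 fell, and 4 retinoic acid genes rose and 6 fell.

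Genes of other embryonic lineages moved both ways. Of 21 neural ectoderm and lens genes, 8 fell (38.1%, against 19% of all genes) and 2 rose. Cryaa, a lens crystallin, had -4.35 and -4.25 at E13.5, against -1.01 and -0.82 at day 12, and fell by 3.39 ± 0.41, and Cryab, also a crystallin, fell by 3.1 ± 0.31. The pigment cell genes Mitf and Pmel fell by 3.85 ± 0.31 and 4.07 ± 0.20 along with Dct. Nes, an intermediate filament of neural progenitors, rose by 1.64 ± 0.24. Of 19 endoderm genes 6 fell (31.6%) and 1 rose (5.26%), with a median of -0.01. Those that fell included Apoe, an apolipoprotein (-3.21 ± 0.35), and Krt8, a keratin of simple epithelia (-3.27 ± 0.45). Of 13 Hox genes 5 fell (38.5%) and 1 rose (7.69%). Of 18 mesoderm genes 5 rose (27.8%, near the 23% of all genes) and 1 fell, and with normexp 2 rose and 2 fell. Fgf8 had 0.37 and 0.80 at E13.5, against -1.61 and -1.11 at day 12, a rise of 1.95 ± 0.35. Wnt3, a signal of the primitive streak, rose by 4.42 ± 0.93, with -0.65 and 3.13 at E13.5 against -3.22 and -3.13 at day 12. From E13.5 replicate 2 alone, 3 neural and lens genes rose and 8 fell, 4 endoderm genes rose and 5 fell, 0 Hox genes rose and 8 fell, and 6 mesoderm genes rose and 2 fell.

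Fibroblast and matrix genes, typical of feeder cells and stroma, fell in 12 of 24 cases (50%) and rose in 1, and in 11 and 1 with E13.5 replicate 2 alone. Timp3, a metalloproteinase inhibitor, had -2.07 and -2.81 at E13.5, against 2.23 and 2.23 at day 12, and fell by 4.67 ± 0.59 (adjusted p = 1.18e-04). Tagln, a smooth muscle actin-binding protein, had -1.07 and -1.75 at E13.5, against 2.79 and 2.75 at day 12, and fell by 4.18 ± 0.33 (adjusted p = 3.82e-06). Postn, the matrix protein periostin, fell by 3.14 ± 0.57 and Pdgfra, a growth factor receptor, by 3.1 ± 0.45. The 6 defining fibroblast markers (Col1a1, Col1a2, Col3a1, Fn1, Postn and Thy1) were well above background on all 4 arrays, with summed levels of 5.38 and 10.8 at E13.5, against 14.8 and 15.3 at day 12, and their part in the results was not tested. Of 17 adhesion and receptor genes, 2 rose and 4 fell, and 3 and 6 did so with E13.5 replicate 2 alone. With both libraries the shares of the adhesion and receptor list were 11.8% and 23.5%, against 23% and 19% of all genes. Itga6, an integrin of stem cells, fell by 2.26 ± 0.35. Cxcr4, the receptor that guides migrating germ cells, was at least 5.81-fold higher at E13.5, but with normexp its change was 0.09 and not called (adjusted p = 0.832).

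Markers of the cells that surround germ cells in the gonad were measured too. The 6 germ cell markers were well above background on all 4 arrays, with summed levels of 169 and 107 at E13.5, against 63.5 and 59.4 at day 12. Ddx4, Tdrd1, Dazl, Mael and Sohlh2 were also well above background in every ES cell group, GFP-negative cells included. Both groups were sorted on Dazl. These flags therefore do not tell germ cells from ES cells. Tdrd1 was lower at day 12 (-2.22 and -2.16) than in ES cells (-1.69 to -0.97), while Ddx4, Dazl, Mael and Sohlh2 were higher at day 12. The 4 pluripotent markers were well above background on all 4 arrays too, with summed levels of 20.7 and 49.8 at E13.5, against 89.1 and 83.6 at day 12. Of the 5 Sertoli markers, 2 and 5 were well above background on the E13.5 arrays, against 2 and 3 at day 12, and their summed levels were 0.214 and 9.38 at E13.5, against 0.877 and 0.833 at day 12. Of the whole Sertoli and supporting list, 3 of 19 rose and 2 fell, and 8 and 1 did so with E13.5 replicate 2 alone. Rspo1, a Wnt activator of the fetal ovary, had 2.11 and 2.86 at E13.5, against -0.36 and -0.45 at day 12, a rise of 2.88 ± 0.37. Of 12 Leydig and interstitial genes, 2 rose and 2 fell, and the same counts came from E13.5 replicate 2 alone.

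Blood cell genes stood higher at E13.5. Of 9 erythroid genes 5 rose (55.6%, against 23% of all genes) and 1 fell. Hba-a1, an alpha globin, had 0.38 and 1.12 at E13.5, against -3.14 and -1.93 at day 12, a rise of 3.29 ± 0.45. Of 12 macrophage genes 6 rose (50%) and 1 fell, and C1qc, a complement subunit, was at least 3.72-fold higher at E13.5. Cd68, a lysosomal protein used as a macrophage marker, fell by 2.27 ± 0.30. The summed levels of the defining markers were 1.36 and 2.27 at E13.5, against 0.127 and 0.288 at day 12, for the 2 erythroid genes measured, and 0.317 and 0.176 at E13.5, against 0.0769 and 0.106 at day 12, for the 3 macrophage genes measured. Their part in the results was not tested. With normexp background correction 1 gene of each list rose and 1 fell, and the medians were -0.33 for macrophage and -0.45 for erythroid genes, against 1.91 and 2.06, so the direction for these dim genes depends on the background correction. Of 12 endothelial genes 1 rose (8.33%) and 4 fell (33.3%, against 19% of all genes). Those that fell included Vwf, von Willebrand factor, by 3.65 ± 0.55, and Tie1, a receptor that was at least 4.47-fold lower at E13.5. With E13.5 replicate 2 alone, 5 erythroid genes rose and 1 fell, 6 macrophage genes rose and 1 fell, and 2 endothelial genes rose and 4 fell.

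Meiosis genes differed between the E13.5 arrays themselves. With both libraries, 36.8% of the genes of meiotic entry and the chromosome axis rose. Among the recombination genes the share was 27.8%, near the 23% of all genes. Of 19 genes of meiotic entry and the chromosome axis 7 rose and 0 fell, but without the library labelled E13.5 replicate 1 it was 2 and 3, and without E13.5 replicate 2 it was 14 and 0. Of 18 genes of meiotic recombination 5 rose and 0 fell, with 5 and 3 without the library labelled replicate 1 and 10 and 0 without replicate 2. Set against the day 12 mean, the median of the entry and axis genes was 1.79 on the library labelled E13.5 replicate 1 and 0.10 on replicate 2, and that of the recombination genes was 1.91 and 0.32. Zcwpw1, a histone reader of recombination hotspots, rose on both arrays, with 3.43 and 2.29 at E13.5, against -0.87 and -0.82 at day 12, a rise of 3.70 ± 0.35 (adjusted p = 1.61e-05). Tex12, of the central element of the synaptonemal complex, had 3.89 and 1.52 at E13.5, against -0.52 and -0.50 at day 12, a rise of 3.21 ± 0.64 (adjusted p = 0.00211). For these genes both E13.5 arrays were above day 12.

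Other meiosis genes were called less firmly. Syce1, Stag3, Sycp2, Spo11 and Msh5, which encode parts of the synaptonemal complex, meiotic cohesin and recombination machinery, were called higher with both libraries but lost their call once the library labelled E13.5 replicate 1 was left out. Syce1 had 5.54 and 3.95 at E13.5, against 3.22 and 3.28 at day 12. Stag3 had 4.85 and 3.87 at E13.5, against 3.26 and 3.33 at day 12. Spo11, which makes the breaks that start recombination, had -0.69 and -1.38 at E13.5, against -5.08 and -3.18 at day 12. The E13.5 arrays stood above day 12 in each, with the library labelled replicate 1 further above. The change with E13.5 replicate 2 alone was 0.71 for Syce1, 0.58 for Stag3, 2.41 for Sycp2, 2.75 for Spo11 and 1.20 for Msh5, with adjusted p between 0.0559 and 0.151. Leaving out a day 12 array ended the call of Syce1, Stag3 and Spo11 for replicate 1, of Sycp2 for replicate 2, and of Msh5 for either. Quantile normalization ended the call of Syce1 (adjusted p = 0.0516) and Stag3 (adjusted p = 0.0754), and normexp that of Sycp2 (0.68), Spo11 (0.74) and Msh5 (0.29). Trip13, Psmc3ip and Mnd1, recombination genes with differences of 0.38 ± 0.22, -0.19 ± 0.15 and 0.56 ± 0.32, were not called, but Trip13 (0.70) and Mnd1 (1.12) were with E13.5 replicate 2 alone.

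Several meiotic genes stood apart on 1 of the E13.5 arrays. There were 950 genes higher by a log2 of 2 or more on the library labelled E13.5 replicate 1 (5.37% of 17691) and 569 higher on replicate 2 (3.22%). These are values of 1 array against 1 array, with no test. Stra8, the retinoic acid target that opens meiosis, had 8.88 on the library labelled replicate 1 and 1.55 on replicate 2, against 8.95 and 8.84 at day 12. For Stra8 the library labelled replicate 1 lay between the day 12 arrays, and replicate 2 was the array that stood apart. In other groups Stra8 had 8.44 to 8.53 in Dazl-GFP cells at day 16 and 7.06 to 7.75 in juvenile testis. Rec8, the meiotic cohesin, had 7.45 and 3.14 at E13.5, against 5.39 and 5.49 at day 12. Meioc, which keeps meiotic transcripts stable, had 3.02 and -1.49 at E13.5, against 1.29 and 1.42 at day 12. Mei1, needed for meiotic breaks, had 3.20 and -3.40 at E13.5, against -1.0 and -0.96 at day 12. In all 3 the day 12 values lay between the E13.5 arrays. Figla, a transcription factor of oocytes, had 0.83 and -5.46 at E13.5 and was well above background only on the library labelled replicate 1.

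On the other side stood genes of the fetal male germ line. Of 11 tested, 3 rose and 2 fell with both libraries, 7 and 2 with E13.5 replicate 2 alone, and 3 and 6 with the library labelled replicate 1 alone. With both libraries the shares were 27.3% and 18.2%, against 23% and 19% of all genes. Against the day 12 mean the median of the list was -2.39 on the library labelled replicate 1 and 1.79 on replicate 2. Nanos2, the RNA-binding protein that sets the male fate, had -5.63 and 0.39 at E13.5, against -6.45 and -6.25 at day 12, and was well above background only on replicate 2. It was at least 4.78-fold higher at E13.5 (adjusted p = 0.0474), a call lost without replicate 2 (adjusted p = 0.447), with normexp (adjusted p = 0.515), with quantile normalization (adjusted p = 0.0693) and without either day 12 array (adjusted p = 0.146 and 0.123). Lefty1, a Nodal target, had -2.54 and 5.50 at E13.5, against 0.17 and 0.19 at day 12. Nodal, the signal that fetal male germ cells make, had -1.39 and 3.37 at E13.5, against 1.63 and 1.53 at day 12. For Lefty1 and Nodal day 12 again lay between the E13.5 arrays, and for Nanos2 it lay with the library labelled replicate 1. The limit of 4.78-fold for Nanos2 was taken from the mean of both E13.5 arrays and describes neither array by itself.

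Genes of other kinds split in the same way. Cst9, a cystatin of Sertoli cells, had -7.15 and 2.16 at E13.5, and day 12 was not well above background. Pmaip1, the Noxa gene of cell death, had -4.03 and 4.90 at E13.5, against 2.58 and 2.65 at day 12. Cdx2, a homeobox factor of trophoblast and hindgut, had 3.1 and -5.12 at E13.5, against -5.31 and -5.04 at day 12. Thus Cst9 and Pmaip1 were high on replicate 2, and Cdx2 on the library labelled replicate 1. Phlda2, an imprinted gene of placental growth, had 5.76 and -2.05 at E13.5, against 1.75 and 1.67 at day 12. Gata2, a GATA transcription factor, had 4.25 and -1.88 at E13.5, against -1.71 and -1.65 at day 12. The 5 Sertoli markers summed to 0.214 on the library labelled replicate 1 and to 9.38 on replicate 2, and their part in these differences was not tested. Between the E13.5 arrays Ddx4 differed by 0.61, Tdrd1 by 0.67 and Lin28a by 0.07.

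**Figure D3:**
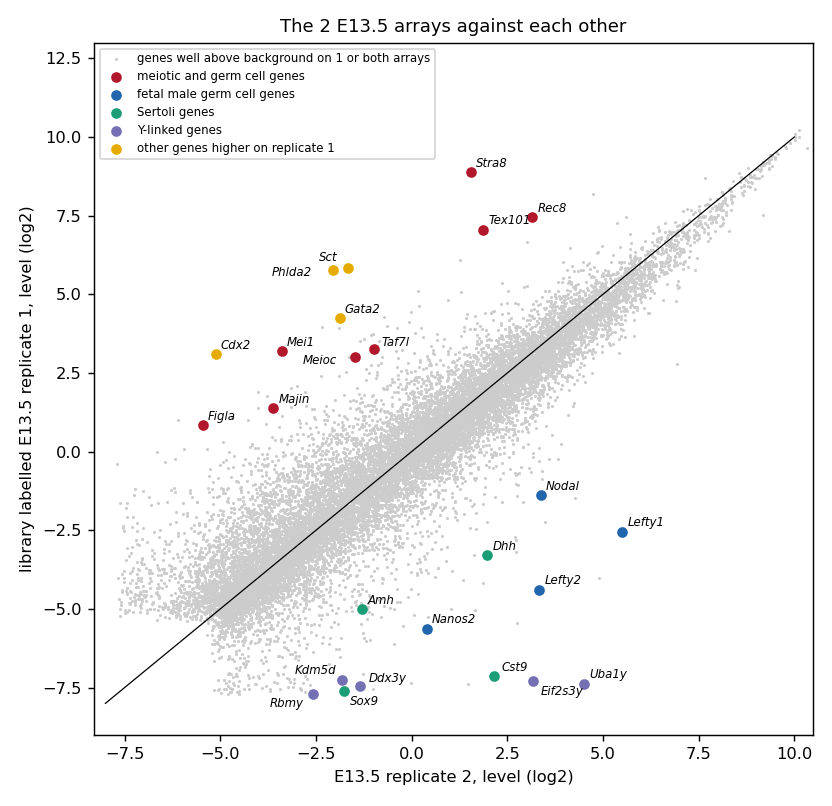
Level of each gene on the library labelled E13.5 replicate 1 (vertical axis, log2) against its level on E13.5 replicate 2 (horizontal axis, log2), with 17691 genes well above background on 1 or both arrays in grey and the line of equal levels. Meiotic genes such as Stra8 (8.88 and 1.55) lie above the line, and Nanos2, Lefty1, Cst9 and the Y-linked genes lie below it.

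**Figure D4:**
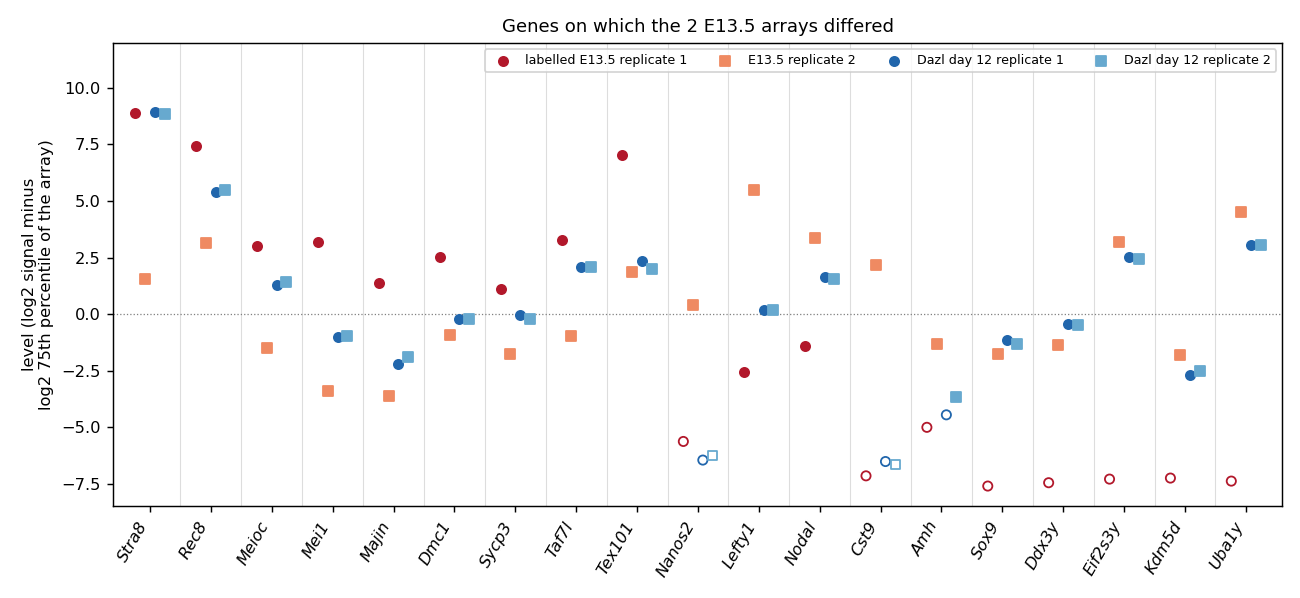
Levels (log2 signal minus the log2 75th percentile of the array) of genes that differ between the E13.5 arrays (red and orange, left) beside the day 12 arrays (blue, right), with open points not well above background; Majin, Dmc1, Sycp3, Taf7l, Tex101, Amh and Sox9 were picked for this plot after their values were seen. Day 12 lies near the library labelled E13.5 replicate 1 for Stra8 and near E13.5 replicate 2 for Eif2s3y and Uba1y.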

How the data were processed

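The study holds 18 one-colour Agilent mouse arrays, 1 per RNA sample, of which 4, those of E13.5 and Dazl-GFP day 12, are compared here. Per the file headers, spots were read with Agilent Feature Extraction 9.1.3.1, and the deposited signals are intensity values after background subtraction, on a linear scale and not scaled between arrays. Control spots were left out, 43379 spots of 41174 probes were averaged by probe, and 183 probes with outlier flags were dropped. Probes were named through RefSeq accessions (22951), a current symbol (6659) or an older symbol (3096), while 8468 kept their original name. The deposited intensity was turned here into log2 signal minus the log2 75th percentile of each array.

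Probes well above background on both arrays of at least 1 of the 9 groups were kept, and the brightest probe stood for its gene. No spot was saturated. All 18 arrays were fitted by group in R 4.3.3 using limma 3.58.1, with the reader data.table (version 1.17.8); there were 9 residual and 2.39 prior degrees of freedom, and E13.5 minus day 12 was tested two-sided. A bound sets the bright group's mean against the dim group's mean of the higher of the probe's own level and the lowest level well above background on the array. The arrays give no counts, so their number limits the precision.

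The members, the 29 gene lists, written from textbook knowledge, and the tests were chosen with earlier results of these data known. The text names a panel (Ddx4, Tdrd1, Dazl, Dppa3, Pou5f1, Nanog and Kit), the 10 named genes that rose most and the 10 that fell most and whose groups separated, up to 5 called members of each list per direction by smallest p with up to 3 uncalled ones of highest level, the 12 genes most different between the E13.5 arrays each way, and the Y-linked and X inactivation genes. Some genes that this rule names are not reported here. Genes outside it (Slc25a31, Rnf17 and those said so in a caption) and the families of the closing section were chosen after their values were seen. The replicate numbers share no stated culture or animal, and deviations of same-numbered arrays correlated at 0.023. The authors' deposited table of group means, intensity over the array median, served only as an alternative. The fit was tested on simulated data. Figures were made with matplotlib 3.10.9, numpy 2.4.6 and pandas 2.3.3 under Python 3.11.15.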

Additional observations from a re-analysis of the deposited data

How the results depend on the processing

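The counts of genes called (7928), higher (4336) and lower (3592) kept within 1.5 times of these values under quantile normalization (7635, 3732 and 3903), floored signals, 4 other filters on dim probes, the mean over a gene's probes, a trend in the prior, slide as a random block and a log2 change of at least 1. The replicate block gave 8022, 4369 and 3653. Counts fell to 3991, 2004 and 1987 with array weights and to 2391, 1087 and 1304 with the 4 arrays alone, and of these calls 3990 and 2351 were among the 7928. A spread from 6 arrays, an alternative chosen after seeing the data, gave 3044, 1521 and 1523. With normexp 5916 genes were called, 2823 of them higher and 3093 lower, and the median of all genes moved to -0.32. Leaving out 1 array in turn gave 5450 to 8164 genes called, 2856 to 4443 higher and 2454 to 3788 lower; the low ends came without day 12 replicate 1 (5450 called, 2856 higher) and without day 12 replicate 2 (2454 lower). The causes of these shifts were not tested. The fits of fewer arrays changed both the number of arrays and the groups behind the spread. Calls of single genes were lost in these fits too. Array weights ended the call of Piwil2 and Dpep3, among others. The 4 arrays alone ended that of Piwil2, Mael, Dppa3, Prdm1, Nanog, Utf1, Tex12, Suz12 and Eed, among others. Of the named genes, Dazl reversed with the mean over its probes (-0.18) and C1qc with normexp (-0.10). The authors' deposited group means gave a median log2 ratio of 0.24 over 12503 matched genes. Dim probes limit what can be said of the globin, complement and Hox genes, Cxcr4, Lhx8 and Nanos2, which lie near background.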

Other observations

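Families looked at after the values were seen are given as counts beside the shares of all genes that rose (23%) or fell (19%) at E13.5, with no test. The family counts and medians come from the main fit only. Many genes of complex I and of the mitochondrial ribosome stood higher, and other mitochondrial genes were not looked at as families. Of 44 genes named as subunits or assembly factors of complex I of the respiratory chain, 24 rose and 2 fell, with a median of 0.66 (0.63 on the library labelled E13.5 replicate 1 and 0.64 on replicate 2). Ndufs7 had 6.03 and 6.09 at E13.5, against 4.41 and 4.38 at day 12, a rise of 1.66 ± 0.17, and Ndufv1, which takes electrons from NADH, had 6.39 and 6.62 at E13.5, against 4.89 and 4.88 at day 12, a rise of 1.62 ± 0.20. Ndufaf3, an assembly factor, fell by 1.56 ± 0.34. Of 78 mitochondrial ribosome genes 38 rose and 1 fell, with a median of 0.51 (0.33 on the library labelled E13.5 replicate 1 and 0.74 on replicate 2). Of 10 subunits of the anaphase-promoting complex, the ubiquitin ligase that ends mitosis, 8 rose and 0 fell, with a median of 1.06, and Anapc5 rose by 1.88.

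Other families stood higher at day 12. Mt1, a metallothionein that binds zinc and copper, had -0.79 and -1.09 at E13.5, against 5.11 and 5.10 at day 12, and fell by 6.04 ± 0.24. Its relative Mt2 had 2.70 and 1.12 at E13.5, against 7.29 and 7.31 at day 12, and fell by 5.38 ± 0.41. Of 12 annexins, proteins that bind membranes with calcium, 7 fell and 0 rose, Anxa8 by 5.51. Of 12 integrin alpha subunits 8 fell and 0 rose, with a median of -1.24, and of 10 serpins of clade B, protease inhibitors, 8 fell and 0 rose, with a median of -2.05. Of 9 PRAME-like genes 8 fell and 1 rose. All of 6 genes of the 2-cell state that were tested fell. Pramel37, Pramel39, Gm428, Zscan4c and Tcstv1 had already been picked as largest falls, so both counts were partly fixed by that choice. Usp17la had -4.18 and -3.64 at E13.5, against 2.47 and 2.48 at day 12, and Tcstv3 had -3.63 and -3.50 at E13.5, against 2.57 and 2.55 at day 12. Among the groups of the study, Zscan4c had 2.79 to 2.89 at day 12 and -0.79 to -0.66 in Dazl-GFP cells at day 16, and Gm428 had 2.88 to 2.89 at day 12 and -1.10 to -0.82 at day 16. Near-identical copies of Zscan4, Tcstv and Usp17l genes may share these probes.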
